A study of Sus scrofa with 34 samples.

Results

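The genes described are 8 enzymes of gluconeogenesis, glycolysis and lactate metabolism: PCK1, PCK2, PC, FBP1, PKLR, PFKFB1, LDHA and LDHB. They were found by their pig Ensembl symbols among the 25880 genes of the liver and ileum count tables, and all 8 passed the filter on low counts in both tissues (13831 genes in liver and 14300 in ileum). RNA was sequenced from the liver of 24 weaned crossbred piglets, 6 on each of 4 diets, and from the ileum of 5 control and 5 PFA piglets, whose livers were also sequenced. The diets were a basal diet (control), the basal diet with a phytogenic feed additive of plant essential oils and nature-identical compounds (PFA), a diet with heated, oxidized rapeseed oil (OO), and the oil diet with the additive (OO + PFA). The oxidized oil was added at the expense of the other ingredients, cereals, dextrose and lactose included, while all diets held only little fresh rapeseed oil. The oil diets were thus also richer in fat and energy, and oxidation of the oil, added fat and less carbohydrate cannot be told apart. The pigs were of both sexes, and tissue was taken after 28 days of feeding. As each diet had a single pen, an effect of the pen cannot be told apart from one of the diet. The OO + PFA liver library of pig 77, which the study excluded because degraded RNA was suspected, was not fitted here, and 23 liver libraries entered the tests. Pigs are named by their diet (C, P, OO, and OP for OO + PFA) and number.

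The liver makes glucose from lactate, amino acids and glycerol by running glycolysis backwards, with separate enzymes at the steps that are irreversible. Pyruvate carboxylase (PC) turns pyruvate into oxaloacetate in mitochondria, phosphoenolpyruvate carboxykinase turns oxaloacetate into phosphoenolpyruvate in the cytosol (PCK1) or in mitochondria (PCK2), and fructose-1,6-bisphosphatase (FBP1) removes a phosphate further up the path. Liver pyruvate kinase (PKLR) runs the opposite, glycolytic step from phosphoenolpyruvate to pyruvate. PFKFB1 is the liver form of the bifunctional enzyme that makes and breaks fructose 2,6-bisphosphate, an activator of glycolysis and inhibitor of FBP1, while LDHA and LDHB are the subunits of lactate dehydrogenase. PCK1 is a classical fasting gene, raised by glucagon through cyclic AMP and lowered by insulin, and PKLR is known as a gene of the fed, carbohydrate-rich state.

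PCK1 (ENSSSCG00000007507) lies on the plus strand of chromosome 17, and the 250 bases before its most upstream RefSeq start are shown because PCK1 differed across the liver diets and is the textbook target of cyclic AMP signals. The window is chr17:57930257-57930506 of Sscrofa11.1, with the octamer TGACGTCA, the cyclic AMP response element, in capitals.
PCK1 upstream: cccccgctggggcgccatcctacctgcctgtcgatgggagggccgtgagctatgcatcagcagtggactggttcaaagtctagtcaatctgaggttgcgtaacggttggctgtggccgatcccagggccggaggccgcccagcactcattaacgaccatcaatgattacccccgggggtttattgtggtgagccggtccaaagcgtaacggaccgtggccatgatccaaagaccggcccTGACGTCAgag
The octamer began 11 bases before that start. The RefSeq transcript of PCK1 located on the genome starts further downstream, at 57930555, so the distance depends on the start chosen. It was present on either strand in 1.70% of the 19545 RefSeq promoters searched over the same length, and in no window of the other members. The shorter motif TGACG, which lies within the octamer on both strands, was present in 19.6% of promoters. The related TTACGTCA (0.548% of promoters) and the E-box CACGTG (6.39%) were not found in the windows of the 8 genes. CCAAT, found in 31.9% of promoters, was present 3 times before PCK2 and 2 times before PFKFB1. These letters describe the sequence only, and binding was not measured.

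The gene positions on Sscrofa11.1 bear on how well reads could be assigned. For PCK1, PCK2, FBP1, PC and LDHA no stretch of at least 75 bases with 90% identity was found elsewhere in the genome. LDHB (ENSSSCG00000032557) is uncertain: RefSeq lists the symbol at an intronless locus on chromosome 2 (12988754 to 12990033, minus strand) and at a locus of 8 exons on chromosome 5 (51810932 to 51831218, plus strand), and 93.6% of the chromosome 5 transcript matched the chromosome 2 copy, in 1282 aligned bases at 99.1% identity. The sources used here do not say which locus the Ensembl identifier stands for. The counts were whole numbers, and pairs with several alignments were tallied apart from the genes. Read pairs that fit both copies could thus be missing from the LDHB counts, which was not tested. For PFKFB1 11.08% and for PKLR 8.31% of the transcript matched other places.

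The depth was 18738055 to 42446834 read pairs counted on genes per liver library and 18772230 to 24338165 per ileum library. Levels are given as CPM, the counts of a gene relative to the library total after scaling by the TMM method. Hepatocyte markers summed to between 107932 and 236707 CPM in the fitted livers, and enterocyte markers to between 20669 and 38360 CPM in the ileum and to at most 919 CPM in liver, as the tissue labels state. The slope of log2 CPM on the GC content of genes differed between libraries and moved with the diet: it was -0.20 to 0.08 per 10% GC in control livers, -0.47 to 0.07 in PFA, -0.38 to 0.42 in OO and 0.04 to 0.49 in OO + PFA. PC (63.3% GC), PCK2 (61.3%) and PCK1 (60.6%) are GC-rich, while LDHA (48.4%) and PFKFB1 (45.2%) are not. GC content was known for 79.9% of the liver genes tested, just under the 80% needed for a check over all genes. The slope rests on those genes alone, and the values and calls given with it as a term carry that limit.

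In control livers the order of levels per kilobase of RefSeq exon was PCK1, FBP1, PCK2, PKLR, PC, LDHA and PFKFB1. PCK1 stood at 256 ± 116 CPM per kilobase (SD, n = 6), FBP1 at 201 ± 34.2 and PCK2 at 129 ± 20.8. The spread of PCK1 reached over the level of FBP1, whereas PCK2 stood clear of FBP1. PKLR followed with 75.2 ± 15.5, PC with 46.7 ± 5.49, LDHA with 23.6 ± 4.80 and PFKFB1 with 19.2 ± 3.84 CPM per kilobase, and the last 2 did not differ beyond their spread. LDHB was left out of this order because of its 2 loci. The length used was that of all RefSeq exons of a gene together, 6124 bases for PFKFB1 and 2800 for LDHA. The single transcripts located on the genome had 1904 and 1683 bases. The places of PFKFB1 and LDHA in this order thus depend on the length chosen.

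**Figure D1:**
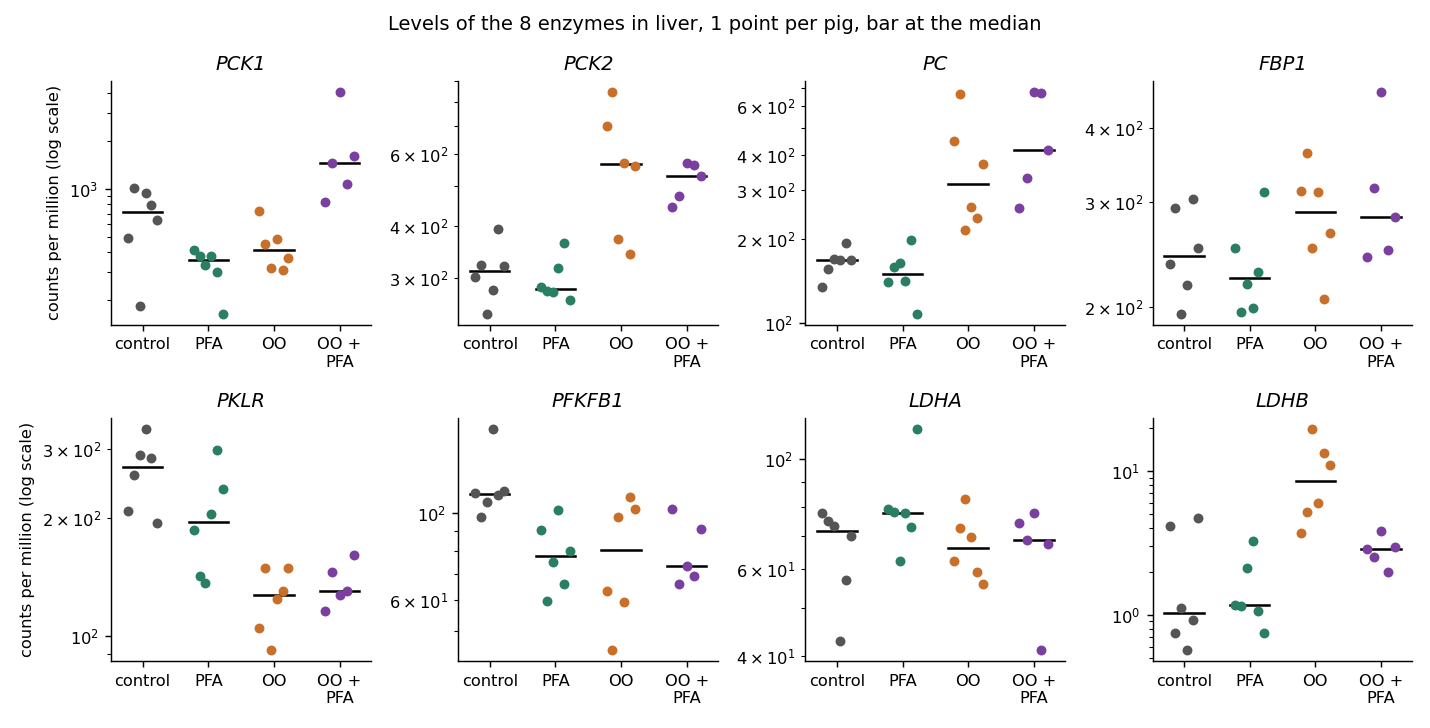
Level of each enzyme in liver in CPM (log axis) for the 6 control, 6 PFA, 6 OO and 5 OO + PFA pigs, 1 point per pig with a bar at the group median. PC and PCK2 sit higher and PKLR lower with oxidized oil, with or without PFA, and PCK1 is highest in OO + PFA, where pig OP-137 reaches 4073 CPM.

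Across the 4 liver diets the level of 5 of the 8 enzymes differed (edgeR's quasi-likelihood F-test, adjusted p at most 0.05 over all genes), against 3.66% of all genes tested. The adjusted p was 0.000366 for PC, 0.000811 for PCK1, 0.00172 for PKLR, 0.00199 for PCK2 and 0.00411 for LDHB, and it was 0.114 for PFKFB1, 0.288 for FBP1 and 0.437 for LDHA. Between OO and control, 4 of the 8 enzymes were called, with PCK2, PC and LDHB higher and PKLR lower, against 2.71% of all genes. Between OO + PFA and control, 4 were called as well, with PCK1, PCK2 and PC higher and PKLR lower, against 5.08% of all genes. The comparisons share the control pigs. No overlap of the groups was seen in 2.24% of all genes for OO and 9.002% for OO + PFA against control. In whole tissue, fewer cells of a type and less RNA per cell cannot be told apart.

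PC, the entry step of gluconeogenesis, was higher in every pig fed oxidized oil than in every control pig. Control livers held 135 to 194 CPM (median 168) and OO livers 215 to 664 CPM (median 316). Pigs OP-105, OP-126, OP-98, OP-79 and OP-137 held 259, 331, 417, 671 and 674 CPM. The log2 fold change was 1.15 (standard error 0.25, 2.22-fold, adjusted p = 0.0152) in OO and 1.51 (standard error 0.27, 2.85-fold, adjusted p = 0.0033) in OO + PFA, relative to control. With PFA alone PC was at 108 to 198 CPM (median 149.7), with 4 of the 6 pigs within the control range, 1 below and 1 above it, and the log2 difference was -0.12 (95% interval -0.62 to 0.37). Within the OO group the 3 libraries with a GC slope above 0 held 371 to 664 CPM and the 3 with a slope below 0 held 215 to 260 CPM. With the slope as a term the log2 difference was 0.87 (adjusted p = 0.0029) for OO and 0.98 (adjusted p = 0.0051) for OO + PFA. The OO difference missed the threshold without pig OO-130 (0.90, adjusted p = 0.054) and in the libraries whose titles have the form PigLiv alone (1.16, adjusted p = 0.0791).

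PCK2, the mitochondrial carboxykinase, moved in the same direction with smaller steps. It was at 245 to 395 CPM (median 311) in control livers and 343 to 847 CPM (median 565) in OO livers, so that the groups overlapped at their edges. Pigs OP-105, OP-126, OP-98, OP-79 and OP-137 held 444, 474, 530.2, 562 and 571 CPM, all above the highest control pig. The log2 fold change was 0.86 (standard error 0.17, 1.82-fold, adjusted p = 0.0078) in OO and 0.73 (standard error 0.18, 1.66-fold, adjusted p = 0.0269) in OO + PFA. With PFA alone the level was 265 to 365 CPM (median 282), a log2 difference of -0.06 (95% interval -0.40 to 0.28). With the GC slope as a term the OO difference was 0.70 (adjusted p = 0.0032) and the OO + PFA difference 0.45 (adjusted p = 0.0956). The OO + PFA call was also lost without any single one of pigs C-71, C-100, C-110, OP-79 and OP-137, with adjusted p between 0.0532 and 0.0674, and in a fit of OO and control alone the OO call was lost (adjusted p = 0.0664).

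PCK1, the cytosolic carboxykinase, followed another pattern. The control pigs held 184 to 1010.3 CPM (median 714), the PFA pigs 164 to 412 CPM (median 355) and the OO pigs 309 to 729.8 CPM (median 411). Pigs OP-105, OP-79, OP-126, OP-98 and OP-137 held 823, 1079.6, 1455, 1620.4 and 4073 CPM. The lowest OO + PFA pig thus stood above the highest OO and PFA pigs, and 2 of the control pigs stood above it. Relative to control, PCK1 was called higher in OO + PFA (log2 fold change 1.42, standard error 0.38, 2.68-fold, adjusted p = 0.0351), while the log2 difference in OO was -0.60 (standard error 0.37, adjusted p = 0.349). The OO + PFA call rested on few pigs: without pig OP-137 the log2 difference was 0.88 (adjusted p = 0.135), and it missed the threshold without any one of pigs C-71, C-85, C-92, C-100, OP-98 and OP-126 too (adjusted p 0.0517 to 0.0827). It was 1.10 with the GC slope as a term (adjusted p = 0.127), 1.42 in a fit of these diets alone (adjusted p = 0.0513) and 1.11 in the PigLiv libraries alone (adjusted p = 0.122). ARG1, a urea cycle enzyme and marker of the hepatocytes around the portal vein, was called higher in OO + PFA too (log2 0.97, adjusted p = 0.0189), as 1 of the 7 markers of that zone, which summed to 2918 to 4634 CPM against 3203 to 5271 CPM in control, and the part of liver zones in the PCK1 result was not tested.

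Against OO, PCK1 was 4.07-fold higher in OO + PFA (log2 2.03, standard error 0.39, unadjusted p = 2.69e-05), with the groups apart, but the adjusted p was 0.0942 and none of the 8 enzymes was called, like 0% of all genes. No overlap of these 2 groups was seen in 0.774% of all genes. PCK1 ranked 3rd of the 13831 genes by p in this comparison. At an unadjusted p under 0.05 there were 2 of the 8 enzymes, PCK1 and LDHB, and 1176 of all genes. DESeq2 called 31 genes, of the 8 only PCK1 (adjusted p = 0.000303), and edgeR called PCK1 without pig OO-102 (adjusted p = 0.0373), C-71 (0.0418) or OP-105 (0.0421). Without pig OP-137 the difference was 1.49 on the log2 scale (adjusted p = 0.485).

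FBP1, the later bypass enzyme, was not called in any diet comparison. Its levels were 195 to 304 CPM (median 244) in control, 196 to 312 CPM (median 224) in PFA and 207 to 363 CPM (median 289) in OO. In OO + PFA, pigs OP-105, OP-79 and OP-98 held 242, 249 and 284 CPM, within the control range, and OP-126 and OP-137 held 318 and 459.6 CPM, above it. The log2 difference from control was 0.19 (95% interval -0.13 to 0.52, adjusted p = 0.526) in OO and 0.32 (95% interval -0.03 to 0.66, adjusted p = 0.296) in OO + PFA.

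PKLR, on the glycolytic side, was lower in both oil groups, without overlap with control. Control livers held 194 to 337 CPM (median 270.2) and OO livers 92.0 to 149.5 CPM (median 127). Pigs OP-105, OP-137, OP-79, OP-126 and OP-98 held 116, 127, 131, 146 and 161 CPM. The log2 fold change was -1.06 (standard error 0.18, 2.09-fold lower, adjusted p = 0.0013) in OO and -0.94 (standard error 0.19, 1.92-fold lower, adjusted p = 0.0108) in OO + PFA, and both remained called with the GC slope as a term (adjusted p = 0.0013 and 0.0139) and without any single pig. The PFA pigs held 136.6 to 298 CPM (median 196), between the other groups and overlapping control, with a log2 difference of -0.38 (95% interval -0.73 to -0.03, adjusted p = 0.448). In the PigLiv libraries alone the OO + PFA call was lost (log2 -0.76, adjusted p = 0.0522). CYP2E1, a marker of the hepatocytes around the central vein, was lower in both oil groups as well (log2 fold change -0.62 in OO and -0.58 in OO + PFA, adjusted p = 0.0211 and 0.0322), and the part of liver zones in the PKLR result was not tested. CYP2E1 was the only one of 6 markers of that zone to be called, and it made up most of their sum, which was 2372 to 3161 CPM in OO and 2424 to 3203 CPM in OO + PFA against 3305 to 4690 CPM in control. RHBG and SLC1A2, of the same list, had higher medians in OO than in control (35.8 against 34.6 CPM and 1.24 against 0.414 CPM).

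PFKFB1 had a lower median in each of the other diets than in control, but no diet was called. Control livers held 97.6 to 164 CPM (median 112), and the next highest control pig after C-80 was at 114 CPM. The PFA pigs held 59.8 to 101.9 CPM (median 77.6) and the OO pigs 44.7 to 109.99 CPM (median 80.6), and pigs OP-126, OP-79, OP-137, OP-98 and OP-105 held 66.0, 69.1, 73.2, 91.3 and 102.7 CPM. No pig of the other diets reached the control mean of 118 CPM, but neither did any control pig except C-80. The log2 difference from control was -0.56 (standard error 0.20, adjusted p = 0.105) in OO, -0.55 (standard error 0.21, adjusted p = 0.113) in OO + PFA and -0.58 (standard error 0.20, adjusted p = 0.334) in PFA. The OO difference passed the threshold with DESeq2 (adjusted p = 0.0475) and without pig OO-97 (log2 difference -0.68, adjusted p = 0.0361), and that of OO + PFA in a fit of these diets alone (adjusted p = 0.0403).

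LDHA, the subunit that prevails in skeletal muscle, was not called in any diet comparison. It was at 43.0 to 77.8 CPM (median 71.6) in control, 62.2 to 115 CPM (median 78.0) in PFA and 56.0 to 83.0 CPM (median 66.1) in OO, and the 5 OO + PFA pigs lay between 41.1 and 78.0 CPM (median 68.8). The log2 difference from control was 0.02 in OO (95% interval -0.30 to 0.35) and 0.00 in OO + PFA (95% interval -0.35 to 0.34). The groups overlapped throughout, with 1 PFA pig, P-95, above all others.

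LDHB counts were low, 15 to 176 read pairs in the control livers, and pairs that fit both LDHB loci could be missing from them. The level was 0.566 to 4.69 CPM (median 1.02) in control and 0.752 to 3.25 CPM (median 1.16) in PFA, and 3.74 to 19.7 CPM (median 8.51) in OO. Pigs OP-79, OP-126, OP-105, OP-98 and OP-137 held 1.99, 2.53, 2.86, 2.97 and 3.81 CPM. The OO pigs were thus highest as a group, with 5 of the 6 above every fitted liver of the other diets. The log2 fold change of OO against control was 2.28 (standard error 0.50, 4.84-fold, adjusted p = 0.0151), and that of OO + PFA against control 0.47 (95% interval -0.54 to 1.48, adjusted p = 0.649). Between OO + PFA and OO the log2 difference was -1.80 (95% interval -2.83 to -0.77) with an adjusted p of 0.349. The OO call was lost in a fit of these diets alone (log2 2.25, adjusted p = 0.07) and in the PigLiv libraries alone (2.10, adjusted p = 0.106).

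**Figure D2:**
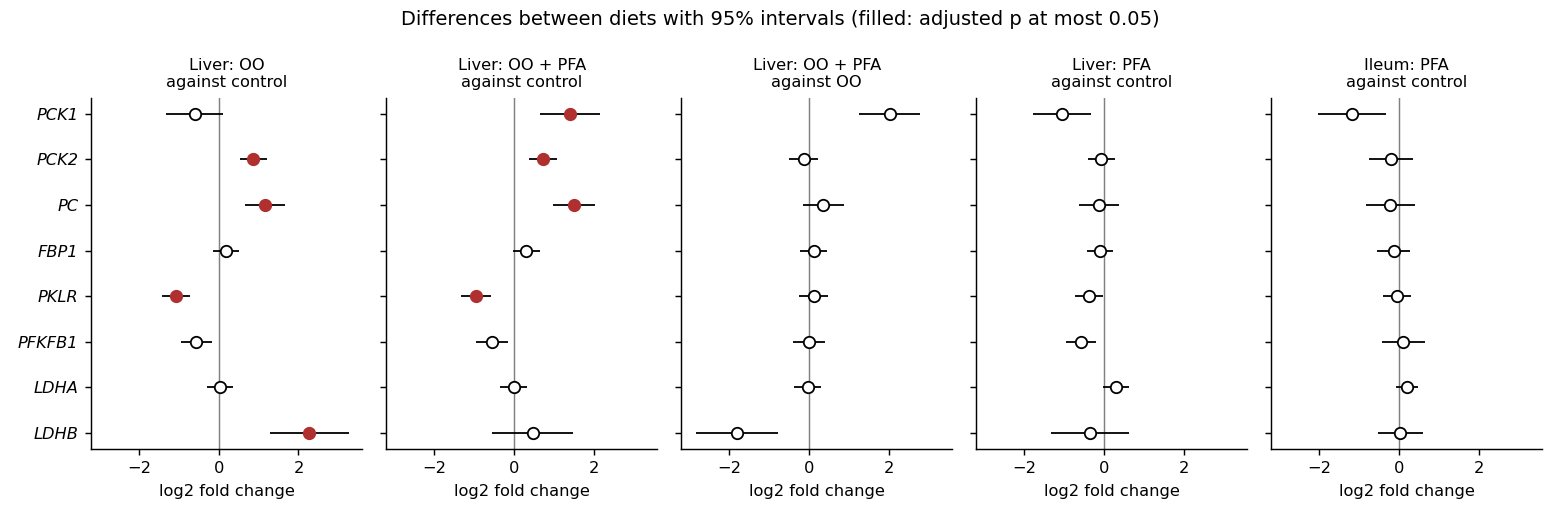
Log2 fold change (x axis) of the 8 enzymes in 5 comparisons of diets, with 95% intervals of 1 gene at a time. Filled points have an adjusted p of at most 0.05: PCK2, PC, LDHB and PKLR for OO against control, and PCK1, PCK2, PC and PKLR for OO + PFA against control.

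Liver titles had 2 forms, PigLiv and PL, in every diet, and the differences were computed within each. For OO against control (3 and 4 pigs with PigLiv, 3 and 2 with PL) the difference in mean log2 CPM was 1.08 and 0.93 for PC, 0.84 and 0.72 for PCK2, -1.05 and -1.20 for PKLR, and 2.17 and 3.24 for LDHB. For OO + PFA against control (4 and 4 with PigLiv, 1 and 2 with PL) it was 1.33 and 1.90 for PC, 0.76 and 0.78 for PCK2, -0.77 and -1.28 for PKLR, and 1.29 and 2.24 for PCK1. The direction was thus the same in both forms for each of these called differences. The PL titles also carry an ending, 1 in the control pigs, 2 in the PFA and OO + PFA pigs and either in the OO pigs. In the PL differences from control this ending and the diet cannot be fully told apart. PCK1 differed more between forms elsewhere, with 1.45 and 3.32 for OO + PFA against OO and -0.40 and -1.70 for PFA against control.

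PFA without oil changed none of the 8 enzymes beyond the threshold in liver, as in 0% of all genes. At an unadjusted p under 0.05 were 3 of the 8 (PFKFB1, PCK1 and PKLR, all lower with PFA) and 1522 of all genes, and DESeq2 called 18 genes, none of them among the 8. For PCK1 the log2 difference was -1.05 (95% interval -1.77 to -0.33, adjusted p = 0.335). All 6 PFA pigs lay below the control mean of 676 CPM, but 1 control pig, C-71, was at 184 CPM, near the lowest PFA pig. The difference between the PFA effects with and without oil, the interaction, was 3.07 on the log2 scale for PCK1 (standard error 0.54, unadjusted p = 7.3e-06). It ranked 2nd of all genes by p, its adjusted p of 0.0505 missed the threshold, and none of the 8 enzymes was called, like 0% of all genes. DESeq2 called 150 genes for the interaction, of the 8 only PCK1 (adjusted p = 3.6e-05), and edgeR called PCK1 with RLE scaling (adjusted p = 0.0475), without the filter (0.0412) or without any one of pigs C-71, P-107, OO-102, OP-79 and OP-105 (adjusted p 0.00797 to 0.0461). Without pig OP-137 the interaction was 2.53 (adjusted p = 0.114), and in the PigLiv libraries alone 2.04 (adjusted p = 0.999976).

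Ratios within a library hardly depend on its scaling and were tested by two-sided exact permutation of the diets, with Benjamini-Hochberg adjustment over 15 tests. The log2 ratio of PCK1 to PCK2 was -0.41 to 1.74 in control livers (median 1.00) and -0.90 to 0.06 in OO (median -0.23), a difference in means of -1.29 (exact p = 0.0108, adjusted 0.0271). Without any one of pigs C-80, C-85, C-92, C-100, C-110, OO-99 and OO-130 that difference missed the threshold (adjusted p = 0.0541). In OO + PFA it was 0.89 to 2.83 (median 1.61), above every OO pig (difference in means 1.92, exact p = 0.0043, adjusted 0.0162). The ratio was thus above 0 in every OO + PFA pig and below 0 in 5 of the 6 OO pigs. The log2 ratio of PKLR to PKM, the pyruvate kinase of most other tissues, was 2.16 to 3.16 in control and 0.97 to 1.99 in OO (difference -1.32, exact p = 0.0022, adjusted 0.0162), and 1.35 to 2.18 in OO + PFA (difference from control -0.93, exact p = 0.0087, adjusted 0.026). The log2 ratio of LDHA to LDHB was 3.76 to 5.92 in control, 2.05 to 3.89 in OO and 4.06 to 4.52 in OO + PFA. It was lower in OO than in control (difference -2.08, exact p = 0.0043, adjusted 0.0162) and higher in OO + PFA than in OO (difference 1.398, exact p = 0.0043, adjusted 0.0162). The 2 loci of LDHB bear on that ratio, and with pig 77 included its difference between OO + PFA and OO was 1.16 (adjusted p = 0.0758).

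**Figure D3:**
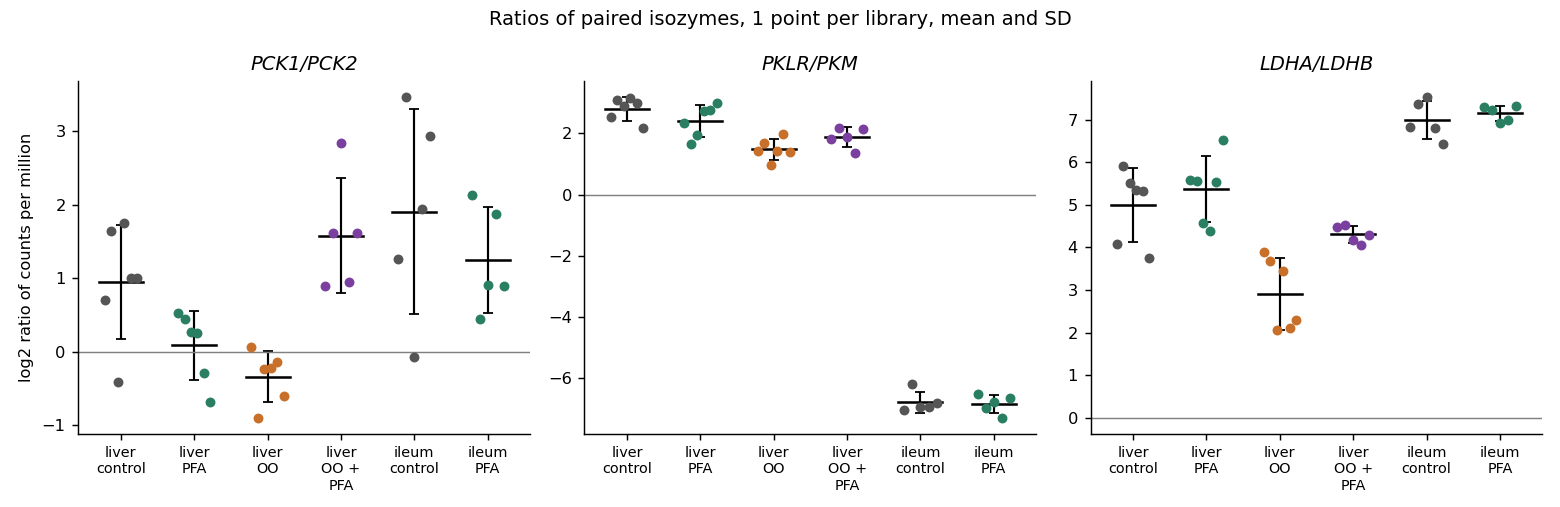
Log2 ratio of the CPM of 2 isozymes in each library (y axis) by tissue and diet, with the mean and SD as bars. PCK1/PCK2 is lowest in OO livers and higher in each OO + PFA liver, PKLR/PKM is above 0 in liver and below -6 in ileum, and LDHA/LDHB is lowest in OO livers.

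Other genes of the pathways were taken from lists of fixed membership, and their calls stand beside 2.71% of all genes called in OO and 5.08% in OO + PFA. Of 21 further glycolysis genes tested, the median log2 fold change was 0.00 in OO beside 0.06 over all genes, and -0.09 in OO + PFA beside -0.01. PFKL, the liver phosphofructokinase, was the only one called higher, in both groups, with log2 fold changes of 1.84 (adjusted p = 0.0109) and 1.91 (adjusted p = 0.0137). It was at 7.35 to 13.3 CPM in control livers, at 10.3 to 74.01 CPM in OO and at 31.1 to 51.1 CPM in OO + PFA, and in OO the libraries with a GC slope above 0 held 36.6 to 74.01 CPM and the others 10.3 to 23.9 CPM. With the slope as a term PFKL remained called at log2 1.17 and 1.03. GCKR was lower in OO (log2 -0.44, adjusted p = 0.0235).

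Of 20 genes of glucose output and its shuttles, only MDH2, the mitochondrial malate dehydrogenase, was called, higher in OO (log2 0.65, adjusted p = 0.0175) and in OO + PFA (log2 0.62, adjusted p = 0.0267). G6PC1, the catalytic subunit of glucose-6-phosphatase and the last step of glucose output, differed across the 4 diets (adjusted p = 0.0106). It was at 99.1 to 1401 CPM (median 343) in control, 162 to 478 CPM (median 251) in OO, and at 557, 738, 926, 1862 and 3065 CPM in pigs OP-79, OP-105, OP-98, OP-126 and OP-137. The highest liver for G6PC1 was that of pig OP-137, the same as for PCK1. The log2 difference of G6PC1 from control was 1.59 in OO + PFA (adjusted p = 0.0662) and -0.76 in OO (adjusted p = 0.38), which are differences that missed the threshold. Over the 23 livers, Spearman's rho of log2 CPM between PCK1 and G6PC1 was 0.82, a description that pools the diets. Of the 13 genes of mitochondrial pyruvate entry and the pyruvate dehydrogenase complex, MPC2, a subunit of the pyruvate carrier, was the only one called, with log2 0.89 in OO (adjusted p = 3.26e-05) and 0.55 in OO + PFA (adjusted p = 0.0144).

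The enzymes of fructose 2,6-bisphosphate other than PFKFB1 all had log2 fold changes below 0 in both oil groups (4 genes tested, median -0.42 in OO and -0.37 in OO + PFA). With PFA alone all 4 were below 0 as well (median -0.46). Only PFKFB3 in OO + PFA was called (log2 -3.09, adjusted p = 0.0096), at 2.41, 2.92, 6.02, 6.53 and 19.1 CPM in pigs OP-126, OP-137, OP-105, OP-98 and OP-79, against 8.70 to 110.5 CPM (median 69.9) in control. Among 18 glycogen genes, PHKA2, a regulatory subunit of phosphorylase kinase, was lower in OO and in OO + PFA (log2 -0.71 and -0.70, adjusted p = 0.00034 and 0.0014), and PPP1R3B, which brings a phosphatase to glycogen in liver, was lower in OO + PFA (log2 -1.39, adjusted p = 0.0386). A list of glucose and lactate transport, which also held some lactate dehydrogenase genes, had 8 genes tested. Of these SLC2A8 was called, in OO + PFA (log2 1.61, adjusted p = 0.0176). Of 9 fructose and pentose phosphate genes none was called in either oil group.

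Of 29 regulators of hepatic glucose enzymes tested, 1 was higher in OO, CREB3L3, a liver transcription factor of the fasting response (log2 0.99, adjusted p = 0.000156). In OO + PFA 6 were higher and none lower, with a median log2 fold change of 0.19 over the list beside -0.01 over all genes. They were IRS2, an insulin receptor substrate (log2 2.78, adjusted p = 0.0052), SIK1, a kinase induced by cyclic AMP (2.62, adjusted p = 0.002), NR0B2, a nuclear receptor that represses transcription (2.15, adjusted p = 0.0189), CEBPB (1.34, adjusted p = 0.0121) and KLF15 (1.23, adjusted p = 0.0068), transcription factors that act on PCK1 and other liver genes, and CREB3L3 (0.67, adjusted p = 0.0166). The members of the list include activators, repressors and parts of the insulin signal. PPARGC1A, a coactivator of gluconeogenic genes, was not called (log2 0.19, adjusted p = 0.681). With the GC slope as a term 11 of the 14 pathway genes called in OO + PFA remained called, and 11 did without pig OP-137, whereas 5 did in the PigLiv libraries alone, where 3 of the 6 genes called in OO did.

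**Figure D4:**
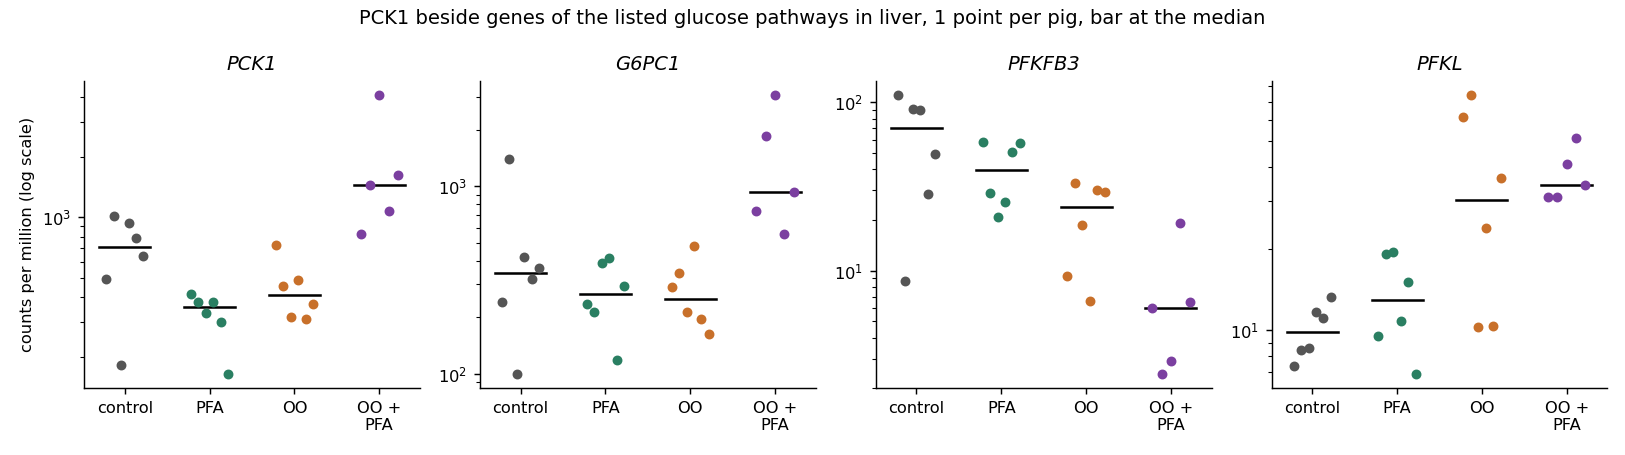
PCK1, G6PC1, PFKFB3 and PFKL in liver in CPM (log axis) by diet, 1 point per pig with a bar at the median. In OO + PFA, PCK1, G6PC1 and PFKL are high and PFKFB3 is low, with pigs OP-126 and OP-137 at 2.41 and 2.92 CPM.

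PFA was also compared with control in the ileum. These pigs and pens also entered the liver comparison of PFA and control, so the 2 tests are not independent. None of the 8 enzymes was called, like 0% of all genes. An unadjusted p under 0.05 was seen for 1 of the 8 and for 401 of all genes, and DESeq2 called 4 genes, none of them among the 8. PCK1 was at 17.4, 38.0, 49.7, 101.6 and 115 CPM in pigs C-71, C-100, C-80, C-92 and C-110, and at 19.4, 24.5, 26.3, 28.5 and 43.0 CPM in pigs P-95, P-138, P-75, P-134 and P-107. The PFA pigs all lay below the control mean of 64.3 CPM, but the groups overlapped, and the log2 difference was -1.18 (95% interval -2.03 to -0.33, unadjusted p = 0.019, adjusted p = 0.991). LDHA was at 591 to 705 CPM in control and at 614 to 1036 CPM with PFA (log2 difference 0.21, 95% interval -0.07 to 0.49). For the other 6 enzymes the log2 difference lay between -0.22 for PC and 0.11 for PFKFB1.

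In the 10 pigs with both tissues, 7 of the 8 enzymes differed between ileum and liver, where 78% of all genes did. The levels that follow are CPM on a scale common to the 20 libraries. The gluconeogenic enzymes were lower in the ileum of all 10 pigs. PCK1 was at 245 to 1488 CPM (median 574) in liver and 11.8 to 76.3 CPM (median 22.5) in ileum, a log2 difference of -4.53 (standard error 0.35, adjusted p = 6.75e-11). FBP1 had the smallest gap, at 281 to 465 CPM in liver and 30.7 to 64.3 CPM in ileum (log2 -3.04, standard error 0.15, adjusted p = 1.8e-14). For PC the log2 difference was -4.92 and for PCK2 -5.62. PKLR and PFKFB1, liver forms of their enzymes, were at 2.08 to 3.47 CPM and 2.24 to 5.81 CPM in ileum, with log2 differences of -6.77 and -5.38. LDHA alone was higher in the ileum, again in all 10 pigs, at 409 to 701 CPM against 62.4 to 172 CPM in liver (log2 2.13, standard error 0.13, adjusted p = 1.36e-12). LDHB was not called (log2 0.41, standard error 0.34, adjusted p = 0.282), although it was higher in the ileum of 8 of the 10 pigs and passed the threshold with the pig as a block (log2 0.63, adjusted p = 0.0283).

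**Figure D5:**
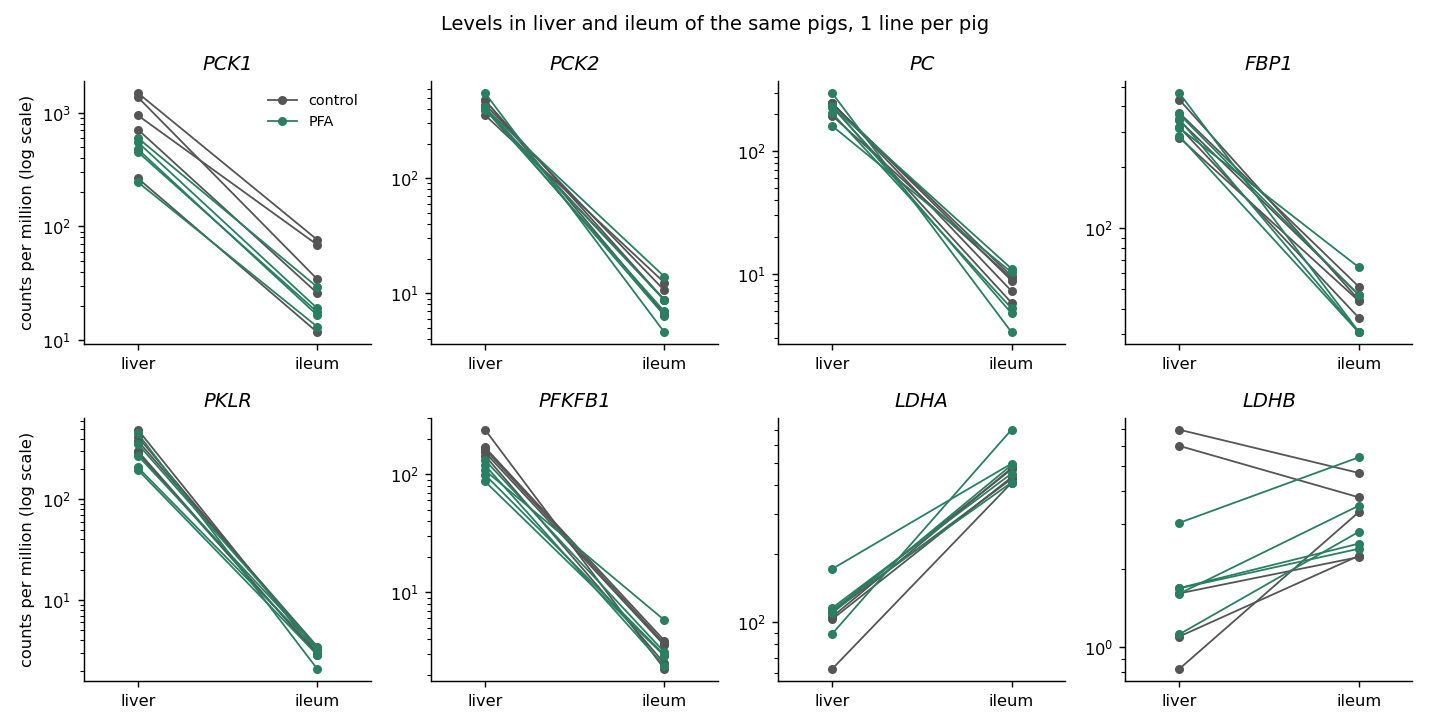
Level in liver and ileum of the same 10 pigs in CPM on a common scale (log axis), with 1 line per pig, grey for control and green for PFA. The lines fall from liver to ileum for PCK1, PCK2, PC, FBP1, PKLR and PFKFB1 and rise for LDHA.

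The order of the enzymes thus differed by tissue. Per kilobase of exon, control ileum held 233 ± 16.1 CPM of LDHA (SD, n = 5), 52.9 ± 6.90 of FBP1, 24.4 ± 15.9 of PCK1, 5.76 ± 1.33 of PCK2, 3.40 ± 0.636 of PC, 1.31 ± 0.129 of PKLR and 0.765 ± 0.181 of PFKFB1. The last place of PFKFB1 again depends on the length chosen. PKM stood at 75.3 ± 12.1 CPM per kilobase in ileum and 4.90 ± 0.576 in liver, the reverse of PKLR.

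As a description over the 23 livers, which pools the diets and their libraries, the genes most like each enzyme by Spearman's rho of log2 CPM were as follows. PC was closest to ILVBL (rho 0.94) and RHBDD2 (0.92), and PCK2 to ACADS (0.93) and UQCRC1 (0.93). PCK1 was closest to SLC25A25 (0.88) and CCN1 (0.86), and FBP1 to QDPR (0.81) and SDHB (0.81). For PFKFB1 they were LYSMD4 (0.85) and SLC2A11 (0.82), and for LDHA ATE1 (0.79) and STXBP6 (0.78). PKLR was closest to 2 genes known only by identifier here, ENSSSCG00000002476 (0.85) and ENSSSCG00000040337 (0.79), and LDHB to ENSSSCG00000000576 (0.80) and PLIN2 (0.78). Among the 8 enzymes themselves PC and PCK2 were most alike (rho 0.87), PCK1 and PCK2 had a rho of 0.51, and PKLR had -0.54 with PC and -0.53 with PCK2.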

How the data were processed

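Poly(A)-enriched, stranded libraries (TruSeq) were sequenced from each piece of tissue. The authors aligned the reads with STAR 2.6.1d to Sscrofa11.1 and deposited whole-number counts of read pairs per Ensembl gene from HTSeq, not normalized; the submitters' processing notes also name DESeq2 1.22.2. The annotation release and the strand option are not given in the sources used here. Summary lines (no gene, several genes, several alignments) were left out of library sizes; per 100 counted pairs, those on no gene were 7.54 to 27.9.

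Symbols came from a gene name table (14857 of 25880 identifiers); loci, sequences and GC content from RefSeq on the same assembly. Counts were filtered with filterByExpr, scaled by TMM and tested with edgeR 4.0.16 in R 4.3.3 (quasi-likelihood F-test, two-sided, Benjamini-Hochberg adjustment over all genes tested, call at an adjusted p of at most 0.05 without a fold threshold). One liver fit held 23 libraries of 4 diets, the ileum fit 10, and the tissue fit 20 with a diet term. Same-numbered libraries of the 2 tissues come from the same animals. The main tissue fit did not use this pairing, and the fit with the pig as a block was the alternative. Isozyme ratios used log2(CPM + 0.5). The standard error is the absolute log2 fold change over the root of F. Intervals cover the fitted spread between pigs, and p-values the spread between the pigs of 1 pen per diet. No 2 libraries agreed within sampling noise. The fits were tested on simulated counts.

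The 8 enzymes and the gene lists were chosen with earlier results of these data known. Besides all 8, the text names the list genes called at the threshold, at most 6 per list (1 item is not reported here), and for each enzyme the 2 genes of highest rho; G6PC1 was shown after its test across the 4 diets, and PPARGC1A, ARG1, CYP2E1, RHBG, SLC1A2 and PKM were chosen after their values were seen or as partners in a ratio. Alternatives were DESeq2 1.42.0, RLE scaling, no filter on low counts, a minimum of 10 counts per library, all 24 liver libraries, the title form or the GC slope as a term, the 2 diets alone, and leaving out each pig. The fit of the PigLiv libraries alone was chosen after seeing the data. Rank correlations used log2 CPM with a prior count of 2.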

Additional observations from a re-analysis of the deposited data

Results flagged for a closer look

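Each enzyme was looked at for a pig that stood apart from its group, in 48 groups of 5 or 6 pigs, and chance marks about 1 group in 20. In OO + PFA livers, PCK1 of pig OP-137 stood apart at 4073 CPM. In PFA livers LDHA of pig P-95 did so at 115 CPM, and in control livers PFKFB1 of pig C-80 at 164 CPM. In the PFA ileum, pig P-138 stood apart for LDHA, at 1036 CPM, and for PFKFB1, at 8.58 CPM.

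For PCK1, every PFA pig without oil lay below the control mean and every pig with OO + PFA above the OO mean, so that the mean effects of PFA on log2 CPM differed by -2.77 (without oil minus with oil). The test of this difference across all genes is the interaction, with an adjusted p of 0.0505 (edgeR's quasi-likelihood test).

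In the library of pig OP-77, which entered no comparison, PC was at 306 CPM, above the highest control liver. PCK1 was at 497 CPM and G6PC1 at 120 CPM there, below all 5 fitted OO + PFA livers, and 36.6 read pairs had several alignments per 100 counted on genes, against at most 14.7 in the other livers.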

How the results depend on the processing

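Of 1760 alternative values for single enzymes, 25 lost a call, 17 gained one and 46 changed sign, the last all in differences that were called neither in the report nor under the alternative. All genes called across the 4 diets (506), in OO against control (375), in OO + PFA against control (702) and in OO + PFA against OO (0) numbered 1113, 224, 1530 and 1 with all 24 liver libraries, and 1776, 1079, 1370 and 31 with DESeq2. In the PigLiv libraries alone the first 3 counts were 157, 114 and 237, in fits of the 2 diets the OO and OO + PFA counts against control were 194 and 1690, and with the GC slope as a term the OO count was 1084 and that of OO + PFA against OO 1. For PFA against control (0) DESeq2 called 18 and the GC term 29, for the interaction (0) DESeq2 called 150 and RLE scaling or no filter 2 each, and in the ileum (0) DESeq2 called 4. Of the 8 enzymes, the count across diets fell from 5 to 2 in PigLiv libraries, that for OO from 4 to 2 there and in the fit of the 2 diets, and that for OO + PFA from 4 to 2 there and with the GC term, while DESeq2 called 1 for OO + PFA against OO, and DESeq2, RLE scaling and no filter 1 each for the interaction. Leaving out 1 pig gave 297 to 1450 genes across diets (lowest without C-85, highest without OO-97), 167 to 1325 for OO (OO-130, OO-97), 191 to 1127 for OO + PFA (C-100, OO-97) with 2 to 4 of the enzymes, 0 to 7 for OO + PFA against OO (highest without OO-102) and 0 to 5 for the interaction (OO-102), each with 0 to 1 of the enzymes. The log2 ratio of PCK1 to PCK2 was then -1.56 to -1.13 for OO (call lost without 7 of the pigs) and -1.13 to -0.70 for PFA against control (call gained without C-71), and with pig 77 that of LDHA to LDHB for OO + PFA against OO was 1.16. The replicate block, the pig number in the tissue fit, raised LDHB to 0.63 (adjusted p = 0.0283) and changed no other call of the 8. The cause of these changes was not tested. Low LDHB counts, GC content known for 79.9% of liver genes and 5 or 6 pigs from 1 pen per diet limit the precision.

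Among the sign changes, the log2 difference of LDHA for OO against control was -0.00021 with RLE scaling, -0.0023 in the fit of the 2 diets, -0.13 in PigLiv libraries and -0.00027 with DESeq2. For OO + PFA against control LDHA was at 0.0043 without the filter, 0.0054 with at least 10 counts, 0.0047 in the fit of the 2 diets and 0.20 with the GC term, and for OO + PFA against OO at 0.081 with the GC term. In PigLiv libraries LDHA was at -0.019 for PFA and LDHB at -0.048 for OO + PFA against control. For OO + PFA against OO, FBP1 was at -0.046 with all 24 libraries and -0.023 in PigLiv libraries, and PFKFB1 at -0.026, -0.0996 and, with the title form as a term, -0.020. In the ileum the GC term gave -0.15 for LDHB and -0.010 for PFKFB1. Leaving out 1 pig gave LDHA -0.073 to 0.083 for OO against control, -0.099 to 0.13 for OO + PFA against control and -0.095 to 0.10 for OO + PFA against OO. In the last comparison it gave -0.24 to 0.019 for PCK2, -0.064 to 0.20 for FBP1 and -0.11 to 0.13 for PFKFB1. For PFA against control in liver it gave -0.13 to 0.018 for PCK2 and -0.69 to 0.12 for LDHB, and for the interaction -0.18 to 0.081 for PCK2. In the ileum it gave -0.11 to 0.059 for PKLR, -0.21 to 0.18 for LDHB, -0.16 to 0.20 for PFKFB1 and -0.15 to 0.085 for the log2 ratio of PKLR to PKM.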
